A study of Homo sapiens with 6 samples.

Results

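The genes described here are 10 members of the machinery that carries a cell from G1 into S phase: the D-type cyclins CCND1 and CCND3, their kinases CDK4 and CDK6, the E-type cyclins CCNE1 and CCNE2, their kinase CDK2, the inhibitor CDKN1B, the pocket protein RB1 and the transcription factor E2F1. They were chosen by symbol, with earlier results of these data known. All 10 had a row among the 17104 genes of the deposited count table. The table comes from 6 RNA-seq libraries of HBMEC, labelled as a line of human brain microvascular endothelial cells. In 3 libraries the cells were controls under normal culture (titles marked CON), and in 3 they had gone through oxygen-glucose deprivation and reperfusion (OGD/R, titles marked OGD), a culture model of ischaemia in which both are withdrawn and then given back. The sources used here do not give the length of either phase. Nor do the labels tell whether replicate libraries stem from separate cultures, so a p-value here measures spread among the samples that may be technical only.

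In outline, growth signals raise D-type cyclins, which bind and activate CDK4 and CDK6. These kinases start the phosphorylation of RB, the product of RB1, which in its unphosphorylated form holds E2F factors in check. Freed E2F raises transcription of the E-type cyclins and of genes for DNA replication, and cyclin E with CDK2 completes RB phosphorylation. The CDKN1B product, p27, binds cyclin-CDK complexes and inhibits CDK2, and the INK4 proteins inhibit CDK4 and CDK6. Much of this control acts on proteins, through phosphorylation and degradation, which transcript counts do not measure.

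Libraries held 31048662 to 34484647 counts, and no pair was as alike as sampling noise alone would make it. Of 12 endothelial markers 4 had a row, with a summed level of 198 to 215 CPM (read counts scaled to a common library total) in control and 203 to 210.4 CPM after OGD/R, and PECAM1, KDR, TEK and VWF had none. Of 10 epithelial markers 7 had a row. Their summed level was 2445 to 2670 CPM in control and 2998 to 3059 CPM after OGD/R. By the rule given below, 3 of these 7 rose and 0 fell, and of the 4 endothelial markers 1 rose and 1 fell. Over all genes, 10.2% rose and 9.48% fell. The part of this epithelial marker difference in the results was not tested.

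After OGD/R, 2 of the 10 genes fell and 1 rose. CCND1 fell by 12.6% and CDK6 by 12.98%, while CDK2 rose by 12.4%, called where the quasi-likelihood p of edgeR, adjusted over all genes, was under 0.05. By that rule 19.7% of all genes changed, 10.2% higher and 9.48% lower, so 3 of 10 is not far from the background. The 10 log2 fold changes ran from −0.20 to 0.17. Their median was 0.07, against −0.00 over all genes. The plot of levels by library shows every value. In bulk RNA, fewer cells in a given cycle phase and less of a transcript per cell cannot be told apart.

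**Figure D1:**
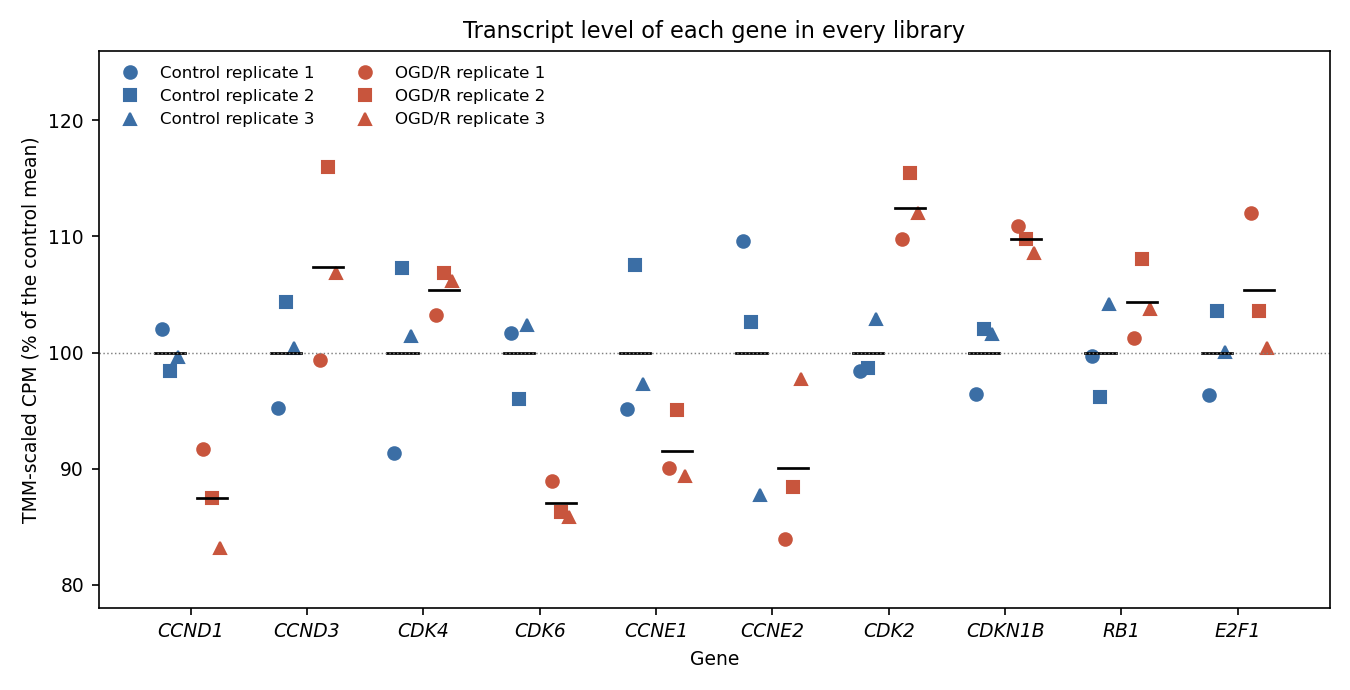
Transcript level of the 10 genes in each library, as TMM-scaled CPM in percent of that gene's control mean, with short black lines at the group means (3 libraries each). The OGD/R libraries lie below all control libraries for CCND1, CDK6 and CCNE1 and above them for CDK2 and CDKN1B.

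CCND1 (ENSG00000110092) encodes cyclin D1, the D-type cyclin best known as a sensor of growth factor signalling. Its level was 693, 668 and 677 CPM in control replicates 1, 2 and 3 and 623, 594 and 565 CPM in OGD/R replicates 1, 2 and 3. All 3 OGD/R libraries lay below all 3 control libraries. The means were 679 ± 12.7 and 594 ± 28.8 CPM (SD, n = 3 each), with a log2 fold change of −0.19 ± 0.04 (SE, edgeR adjusted p = 0.000324). With 18200 to 22647 reads per library, counting error alone is 0.69% of the level, less than the 1.86% and 4.85% spread (SD over mean) of the control and OGD/R libraries. Of its annotated exon bases, 10.3% overlap LTO1 on the opposite strand, a gene at 20.3 CPM in control.

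CCND3 (ENSG00000112576), cyclin D3, had a value on the other side of 0 that did not pass. It stood at 51.5, 56.5 and 54.3 CPM in control and at 53.8, 62.8 and 57.9 CPM after OGD/R. The groups overlapped, with OGD/R replicate 1 inside the control range. The log2 fold change was 0.10 (95% interval −0.02 to 0.23, edgeR adjusted p = 0.275), and a rise as large as the CCND1 fall lies within that interval. It was 0.04 without OGD/R replicate 2 and 0.16 without OGD/R replicate 1.

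Of the D-type cyclin kinases, CDK6 (ENSG00000105810) fell. Its level was 193, 182 and 194 CPM in control and 169, 163 and 163 CPM after OGD/R, with no overlap between the groups. The means were 189.6 ± 6.68 and 165 ± 3.19 CPM, with a log2 fold change of −0.20 ± 0.04 (edgeR adjusted p = 0.000449). CDK6 has the longest annotated transcript of the 10 genes, at 11612 nucleotides. Once each library was corrected for GC content and transcript length, the fold change was −0.11 ± 0.04 (edgeR adjusted p = 0.0311), with corrected levels of 179, 182 and 189.7 CPM in control and 177, 169 and 166 CPM after OGD/R. The groups still did not overlap after the correction.

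CDK4 (ENSG00000135446), the other kinase of the D-type cyclins, did not pass. It was at 88.9, 104 and 98.7 CPM in control and at 100.5, 104 and 103 CPM after OGD/R. All 3 OGD/R libraries lay within the control range, and control replicate 1 was the lowest of the 6. The log2 fold change was 0.08 (95% interval −0.03 to 0.18, edgeR adjusted p = 0.349). It was 0.02 without control replicate 1 and 0.13 without control replicate 2. Of the CDK4 exon bases, 43.2% overlap TSPAN31 on the opposite strand. The sources used here do not say whether counting used strand, and without strand the reads of the shared stretch cannot be told apart. TSPAN31 was at 16.3 ± 0.83 CPM in control and 18.8 ± 1.56 CPM after OGD/R.

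Neither E-type cyclin passed, and both values were below 0. CCNE1 (ENSG00000105173), cyclin E1, was at 37.4, 42.3 and 38.3 CPM in control and at 35.4, 37.4 and 35.2 CPM after OGD/R. The groups did not overlap, but OGD/R replicate 2 and control replicate 1 nearly met. The log2 fold change was −0.13 ± 0.07 (95% interval −0.27 to 0.01, edgeR adjusted p = 0.208). With the length and GC correction it was −0.19 ± 0.06 and passed (edgeR adjusted p = 0.0312), with corrected levels of 39.3, 42.1 and 39.1 CPM in control and 34.8, 36.5 and 34.6 CPM after OGD/R. Without control replicate 2 the uncorrected value was −0.07.

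CCNE2 (ENSG00000175305), cyclin E2, had the lowest counts of the 10 genes, 348 to 460 reads per library. It was at 14.1, 13.2 and 11.3 CPM in control and at 10.8, 11.4 and 12.6 CPM after OGD/R, and the groups overlapped. The log2 fold change was −0.15 with a wide 95% interval of −0.38 to 0.08 (edgeR adjusted p = 0.399), which includes changes larger than that of CCND1. It was −0.08 without control replicate 1 and −0.23 without control replicate 3. Of its exon bases, 37.1% overlap genes on the opposite strand, mainly INTS8. INTS8, a subunit of the Integrator complex, rose from 56.1 ± 4.45 to 65.8 ± 2.48 CPM (0.23 ± 0.06, edgeR adjusted p = 0.00358). Its part in the CCNE2 value was not tested.

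CDK2 (ENSG00000123374), the kinase partner of cyclin E, was the member that rose. It was at 80.9, 81.2 and 84.6 CPM in control and at 90.2, 94.9 and 92.1 CPM after OGD/R. All 3 OGD/R libraries lay above all 3 control libraries. The means were 82.2 ± 2.08 and 92.4 ± 2.35 CPM, with a log2 fold change of 0.17 ± 0.05 (edgeR adjusted p = 0.0120). Without OGD/R replicate 2, the highest library, the value was 0.15 and the call ended (edgeR adjusted p = 0.0850). Of its exon bases, 16.8% overlap genes on the opposite strand.

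CDKN1B (ENSG00000111276), which encodes p27, lay close to the threshold. It was at 68.8, 72.8 and 72.5 CPM in control and at 79.1, 78.4 and 77.5 CPM after OGD/R. The groups did not overlap, and the OGD/R libraries varied by 1.04% of their mean, less than the counting error of 2.01%. The log2 fold change was 0.13 ± 0.05 (95% interval 0.03 to 0.24, edgeR adjusted p = 0.0664). DESeq2 gave 0.14 with an adjusted p of 0.0446. With the length and GC correction the value was 0.08 (edgeR adjusted p = 0.250).

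RB1 (ENSG00000139687) and E2F1 (ENSG00000101412), the switch that these kinases act on, did not pass. RB1 was at 77.6, 74.9 and 81.1 CPM in control and at 78.9, 84.2 and 80.8 CPM after OGD/R, a log2 fold change of 0.06 (95% interval −0.04 to 0.17, edgeR adjusted p = 0.477). E2F1 was at 84.5, 90.9 and 87.8 CPM in control and at 98.3, 90.9 and 88.1 CPM after OGD/R, a log2 fold change of 0.08 (95% interval −0.03 to 0.18, edgeR adjusted p = 0.351). In both genes the groups overlapped. OGD/R replicate 1 was the highest library for E2F1, and without it the value was 0.03. The RB1 value was 0.04 without control replicate 2 or OGD/R replicate 2 and 0.09 without control replicate 3. With the length and GC correction the E2F1 groups did not overlap (0.08, edgeR adjusted p = 0.258). Neither gene shares annotated exon bases with another gene.

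Over the 10 genes, the groups did not overlap in 5, against 33.0% of all genes. OGD/R lay above in 2, against 16.4%, and below in 3, against 16.6%. The plot of fold changes sets the values as counted beside those with the length and GC correction. With that correction the same 3 genes passed and CCNE1 joined them, giving 1 higher and 3 lower. Under the same correction 1770 of all 17104 genes were higher and 1527 lower.

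**Figure D2:**
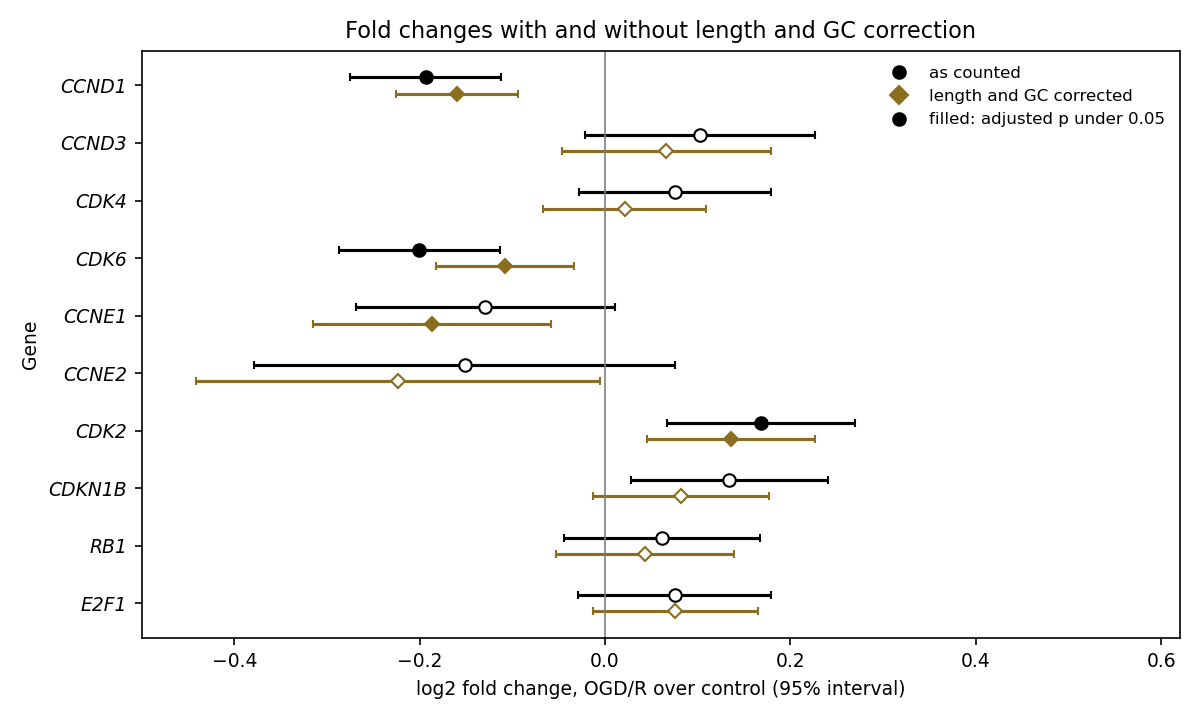
Log2 fold change of OGD/R over control with its 95% interval for the 10 genes, as counted (black circles) and with the length and GC correction (brown diamonds); filled symbols have an edgeR adjusted p under 0.05. CCND1, CDK6 and CDK2 are filled in both, CCNE1 only with the correction, and the CDK6 value moves from −0.20 to −0.11.

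Compared per length, as CPM per kilobase of the longest annotated transcript, CCND1 was by far the most abundant, at 158 ± 2.94 in control. CDK4 followed at 46.9 ± 3.78, then E2F1 at 35.0 ± 1.28, CDK2 at 31.6 ± 0.80, CDKN1B at 26.9 ± 0.83 and CCND3 at 22.6 ± 1.04. CCNE1 (19.3 ± 1.28), CDK6 (16.3 ± 0.58) and RB1 (16.2 ± 0.65) came next. CDK6 and RB1 were not separated beyond their spread in control. CCNE2 was lowest, at 3.86 ± 0.43. With the merged length of all annotated exons in place of the longest transcript, CCND3 moved from 6th to 9th, since its merged exons span 5802 nucleotides against 2394, so the middle of this order depends on which transcripts the cells hold. CCND2, a D-type cyclin outside the 10 genes, is ranked 10th of the 11 in the plot of levels per length.

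**Figure D3:**
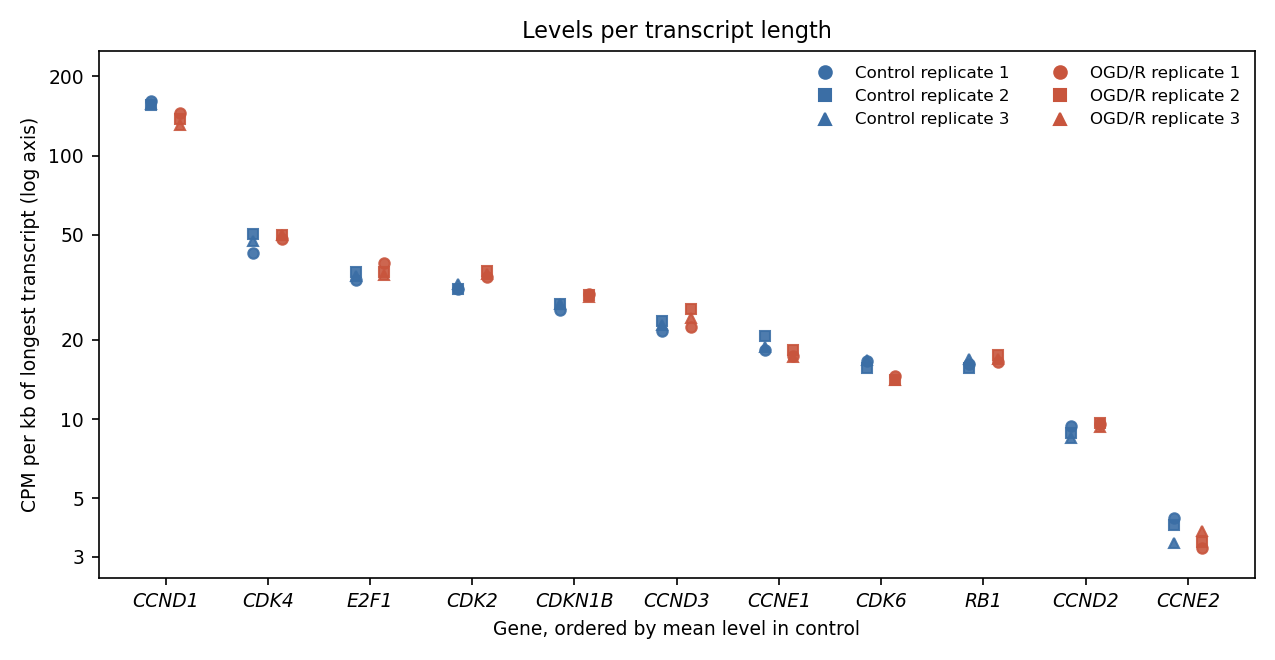
CPM per kilobase of the longest annotated transcript (log axis) for the 10 genes and CCND2 in each of the 3 control and 3 OGD/R libraries, ordered by the control mean. CCND1 lies at 131 to 161 in every library and CCNE2 at 3.24 to 4.23, and the other genes lie between.

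The composition of the D-type cyclin pool was computed after these values were seen and is given as a description. Per length, CCND1 made up 83.9%, 82.7% and 83.4% of the transcripts of CCND1, CCND2 and CCND3 in control and 81.9%, 79.4% and 79.7% after OGD/R. The OGD/R libraries were all lower, by 3.04 percentage points on average. CDK6 made up 27.9%, 23.7% and 26.0% of the transcripts of CDK4 and CDK6 in control and 23.1%, 21.9% and 22.0% after OGD/R. These shares rest on the longest annotated transcript of each gene and were 89.0% and 33.5% in control with merged exon lengths.

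Ratios between 2 genes within a library do not depend on how libraries are scaled. Of 6 such ratios, 4 had groups that did not overlap and 2 overlapped. Each of the 4 holds CCND1, CDK6, CCNE1 or CDKN1B, whose own levels were already separate, so they are not independent of those results. The share of separate ratios over other gene pairs was not computed. With 3 libraries against 3 the exact two-sided permutation test cannot go below p = 0.10, so none can pass, and the 4 separated ratios all had that smallest p (0.15 adjusted over the 6 pairs). The count ratio of CCND1 to CDKN1B, a D-type cyclin against the inhibitor, was 10.1, 9.18 and 9.33 in control and 7.87, 7.59 and 7.29 after OGD/R. On the log2 scale it was lower by 0.33 on average, with group SDs of 0.07 and 0.06. The ratio of CCNE1 to CDKN1B was 0.544, 0.581 and 0.528 in control and 0.448, 0.477 and 0.454 after OGD/R. Both cyclins thus stood lower against the p27 transcript in every OGD/R library than in any control library.

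Within families, CCND1 to CCND3 was 13.5, 11.8 and 12.5 in control and 11.6, 9.47 and 9.77 after OGD/R, and the groups were separated only narrowly. CDK4 to CDK6 was 0.461, 0.574 and 0.509 in control and 0.596, 0.636 and 0.635 after OGD/R. With the length and GC correction the groups of these 2 family ratios were less distinct, each with an exact permutation p of 0.2, and the CDK4 to CDK6 difference went from 0.28 to 0.13 on the log2 scale. CCNE1 to CCNE2 (difference 0.02, exact permutation p = 0.8) and E2F1 to RB1 (0.01, p = 0.8) overlapped fully.

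**Figure D4:**
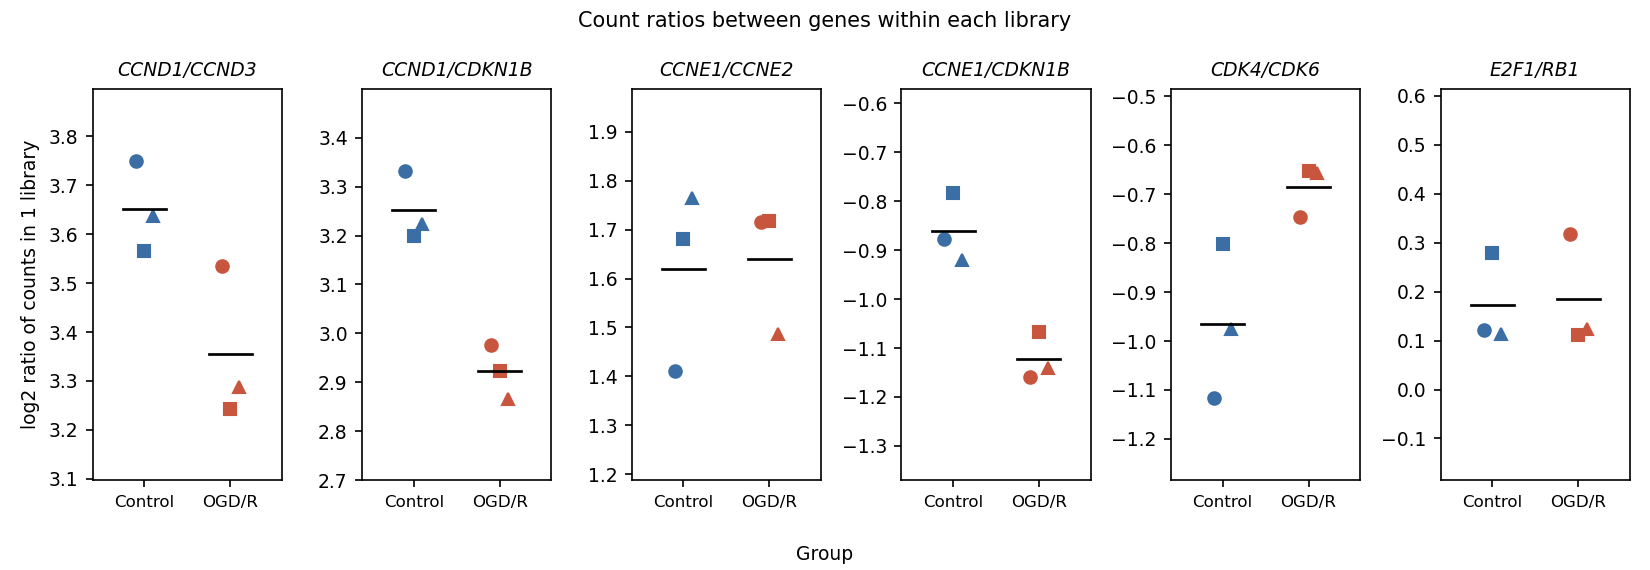
Log2 ratio of the counts of 2 genes within each library, with circles, squares and triangles for replicates 1, 2 and 3 and black lines at the group means; each panel spans 0.8 log2 units. The groups are separate for CCND1/CCND3, CCND1/CDKN1B, CCNE1/CDKN1B and CDK4/CDK6 and overlap for CCNE1/CCNE2 and E2F1/RB1.

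A list of 41 further genes of G1 control and the RB-E2F pathway was all measured. Of these, 6 rose and 3 fell, or 22.0%, close to the 19.7% of all genes, with a median log2 fold change of 0.02. The 6 that rose were CDKN2C, CDKN2D, MYBL2, CKS1B, WEE1 and FBXO5, and the 3 that fell were FOXO1, MYC and CDKN2B. The fall count was 1 without control replicate 3, without OGD/R replicate 1 or without OGD/R replicate 2. With the length and GC correction 9 rose and 5 fell, against 1770 higher and 1527 lower of all 17104 genes. The share of the list was then above that of all genes.

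The inhibitors did not move together. The INK4 genes CDKN2C (p18) and CDKN2D (p19), inhibitors of CDK4 and CDK6, rose. CDKN2C was at 31.6, 30.9 and 32.6 CPM in control and at 47.1, 44.5 and 40.8 CPM after OGD/R, a log2 fold change of 0.48 ± 0.07 (edgeR adjusted p = 6.90e-07) that was larger than that of any of the 10 members. CDKN2D was at 10.1, 9.56 and 10.1 CPM in control and at 13.04, 12.97 and 15.9 CPM after OGD/R (0.50 ± 0.11, edgeR adjusted p = 0.000928). No OGD/R library overlapped the control range in either gene. CDKN2B (p15), of the same family, fell from 15.9 ± 1.13 to 12.7 ± 1.09 CPM (−0.32 ± 0.10, edgeR adjusted p = 0.0217). Its call ended without control replicate 1 (−0.28, adjusted p = 0.0999), control replicate 3 (−0.30, 0.0889), OGD/R replicate 1 (−0.28, 0.0900) or OGD/R replicate 2 (−0.30, 0.0921). CDKN2A, which encodes p16 of this family and, in another reading frame, ARF, was at 50.6 ± 2.60 CPM in control and 50.6 ± 0.92 CPM after OGD/R, a log2 fold change of 0.00 (95% interval −0.12 to 0.12, edgeR adjusted p = 0.995). CDKN1A (p21), a relative of CDKN1B and a target of p53, was at 0.04 (95% interval −0.05 to 0.14, edgeR adjusted p = 0.582). Without control replicate 1 or OGD/R replicate 2 the CDKN1A value was 0.01, and without control replicate 2 or OGD/R replicate 3 it was 0.10 or 0.07.

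Upstream of the D-type cyclins, MYC, a transcription factor that drives growth and cell cycle entry, fell from 68.9 ± 2.995 to 61.0 ± 0.82 CPM (−0.18 ± 0.06, edgeR adjusted p = 0.0191). The MYC call ended without control replicate 2 (−0.14, adjusted p = 0.105), control replicate 3 (−0.18, 0.0613), OGD/R replicate 1 (−0.17, 0.0560) or OGD/R replicate 2 (−0.17, 0.0766). FOXO1, a forkhead factor restrained by AKT, fell from 8.51 ± 0.58 to 5.77 ± 0.54 CPM (−0.56 ± 0.14, edgeR adjusted p = 0.00283). CCND2 had a value of 0.10 ± 0.06 (edgeR adjusted p = 0.277) and passed with the length and GC correction, at 0.16 (edgeR adjusted p = 0.0241).

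Of the other pathway genes, MYBL2 joins the MuvB complex to activate late cell cycle genes. MYBL2 rose from 241 ± 4.47 to 290.2 ± 7.04 CPM (0.27 ± 0.04, edgeR adjusted p = 1.22e-06). CKS1B, a cofactor of SKP2 in the degradation of p27, rose from 92.5 ± 5.14 to 110.6 ± 5.41 CPM (0.26 ± 0.05, edgeR adjusted p = 0.000122). Its value was 0.07 with the length and GC correction and no longer passed (edgeR adjusted p = 0.245). SKP2 itself was at −0.07 (edgeR adjusted p = 0.374), and CDC25A, a phosphatase that activates CDK2, at −0.09 (edgeR adjusted p = 0.399). The pocket proteins RBL1 (p107) and RBL2 (p130) were at −0.06 and −0.14 (edgeR adjusted p = 0.555 and 0.0585). RBL1 was at −0.01 without control replicate 3 or without OGD/R replicate 3, −0.09 without OGD/R replicate 1 and −0.10 without control replicate 2. RBL2 passed with the length and GC correction (−0.13, edgeR adjusted p = 0.0491), with total-count scaling (−0.17, 0.0179) and without OGD/R replicate 3 (−0.18, 0.0338).

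A list of 25 genes whose transcription E2F is known to control at the G1/S boundary was mostly higher. It was chosen with earlier results on replication genes known, and it does not hold all genes under E2F. The E-type cyclins, which E2F also raises, were counted among the members and did not pass as counted (CCNE1 −0.13, CCNE2 −0.15). E2F1 (0.08) and 6 other pathway genes with the E2F motif searched for below were also outside the list and did not pass. These 6 were RBL1 (−0.06), CDC25A (−0.09), E2F2 (0.13), E2F3 (−0.04), LIN52 (−0.10) and TFDP1 (0.02). Also outside it were the 6 other pathway genes that rose, MYBL2 (0.27) and FBXO5 (0.20) among them, and the 3 that fell. Control by E2F was not assessed for those genes. Of 25, all measured, 13 (52%) rose and 0 fell in edgeR's test, against 10.2% higher and 9.48% lower over all genes. The median log2 fold change of the list was 0.14. At an unadjusted p under 0.05 the count of lower genes was 1, CDT1, and DESeq2 and limma-voom also called 0. TK1, thymidine kinase of the nucleotide salvage path, was at 175, 196 and 191 CPM in control and at 264, 259.6 and 263 CPM after OGD/R (0.48 ± 0.04, edgeR adjusted p = 2.70e-12). CDK1, the mitotic kinase, was at 164, 166 and 163 CPM in control and at 209.6, 206 and 217 CPM after OGD/R (0.36 ± 0.04, edgeR adjusted p = 5.81e-09). RRM1 rose by 0.33 ± 0.04 and PCNA by 0.29 ± 0.04, and with the length and GC correction CDK1 was at 0.21 and PCNA at 0.14. The plot of pathway genes places this list beside the other, in which values spread to both sides of 0.

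**Figure D5:**
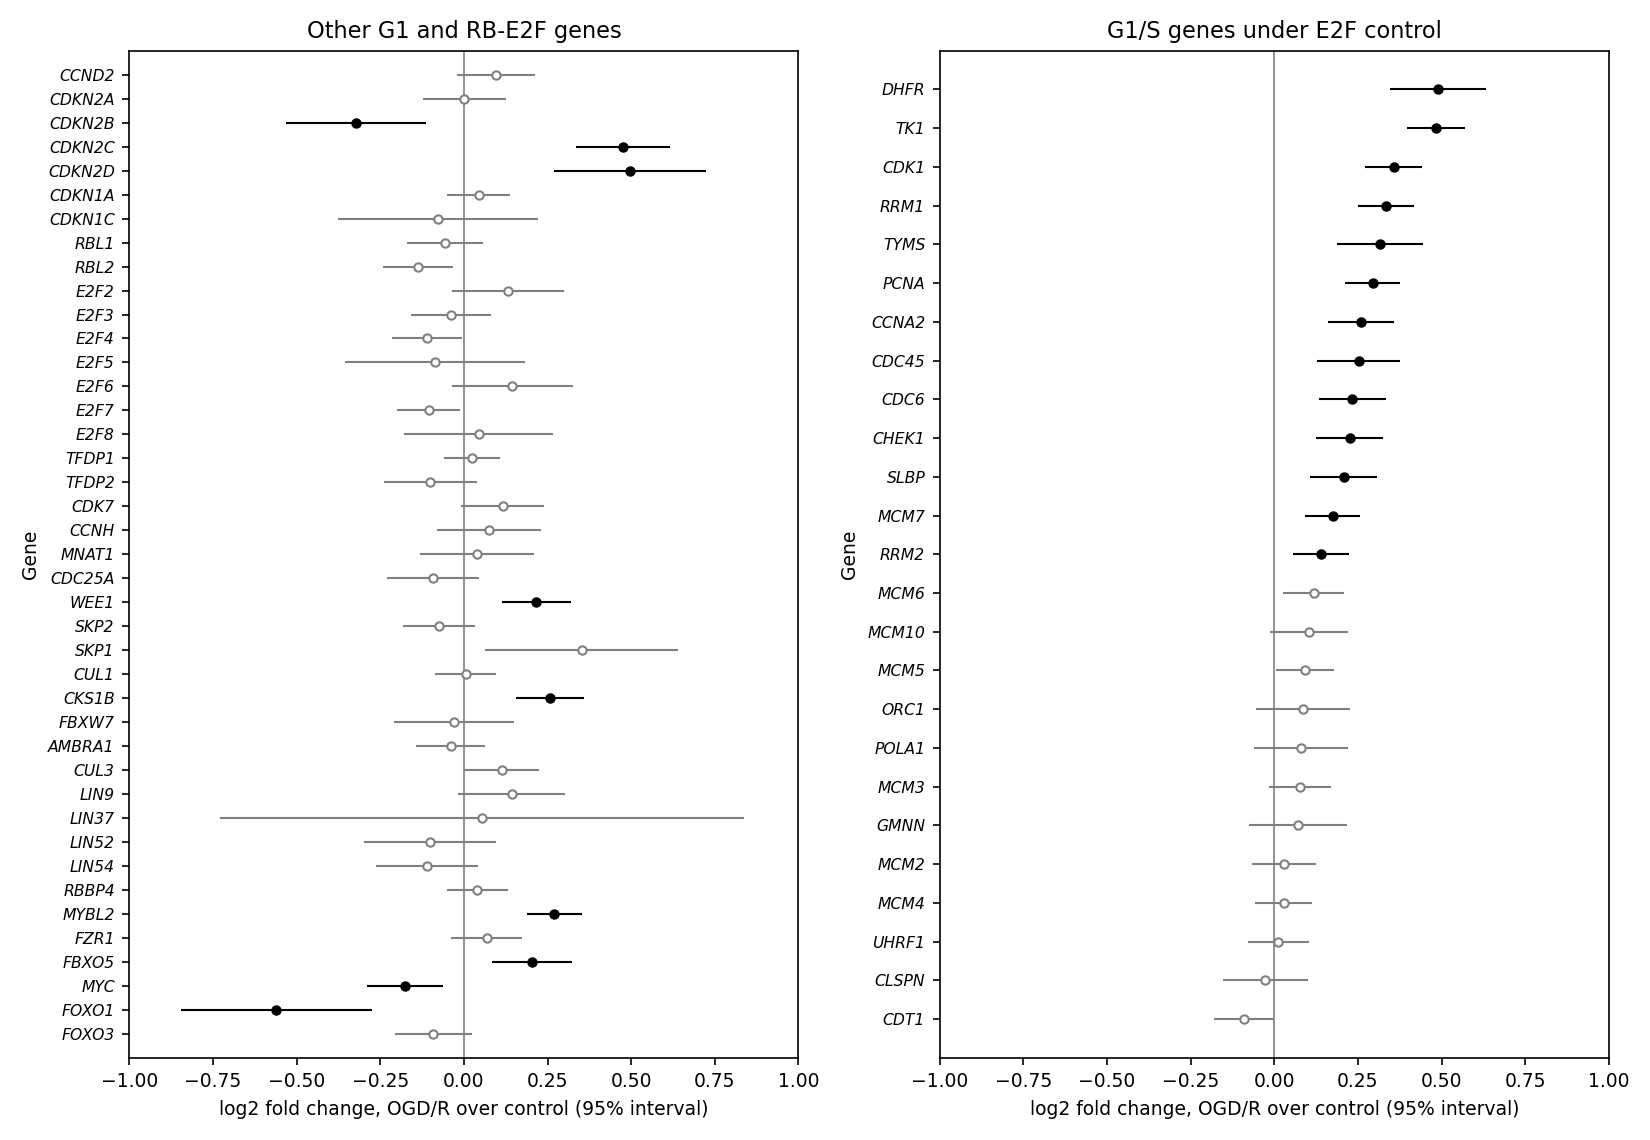
Log2 fold change of OGD/R over control with its 95% interval for 41 other genes of G1 control and the RB-E2F pathway, in order of role (left), and for 25 G1/S genes under E2F control, in order of size (right); filled symbols have an edgeR adjusted p under 0.05. On the left 6 genes are filled above 0 and 3 below, and on the right 13 above and 0 below.

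Because E2F binds a known DNA motif, promoter sequence from RefSeq (GRCh38.p14) was searched for TTTCCCGC, TTTGGCGC, TTTCGCGC and TTTGCCGC on both strands, in windows from 250 bases before to 50 bases after each gene start. Matches of these forms can overlap each other on opposite strands. At least 1 match was held by 1 of the 7 members in the table (E2F1), by 6 of 35 other pathway genes (17.1%), by 13 of 22 G1/S genes (59.1%) and by 3.99% of all 27305 genes. A match in any window of a gene counts. Windows per gene averaged 1.43 for members, 1.77 for other pathway genes, 1.59 for G1/S genes and 1.29 over all genes. The lists thus had more sequence searched per gene. The G1/S genes were listed for known control by E2F, so their share of matches cannot test that control. The 27305 genes were not limited to those of the count table. CCND1, CCNE2 and CDK2 had no entry matched. Shown for comparison are the 100 bases directly before the gene start in 4 genes with a match and 2 without, 5′ to 3′ on the gene's strand, with matches in capitals.
E2F1, chr20:33686386-33686485, minus strand: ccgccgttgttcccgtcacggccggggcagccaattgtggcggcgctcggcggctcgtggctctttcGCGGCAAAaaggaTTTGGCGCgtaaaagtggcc
RBL1, chr20:37095998-37096097, minus strand: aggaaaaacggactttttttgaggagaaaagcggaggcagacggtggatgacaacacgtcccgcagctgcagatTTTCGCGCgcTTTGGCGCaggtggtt
CDC25A, chr3:48188418-48188517, minus strand: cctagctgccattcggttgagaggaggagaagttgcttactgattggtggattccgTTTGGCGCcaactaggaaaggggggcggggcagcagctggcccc
PCNA, chr20:5126623-5126722, minus strand: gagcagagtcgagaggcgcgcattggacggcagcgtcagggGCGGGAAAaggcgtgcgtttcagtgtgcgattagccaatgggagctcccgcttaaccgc
CCNE1, chr19:29811891-29811990, plus strand: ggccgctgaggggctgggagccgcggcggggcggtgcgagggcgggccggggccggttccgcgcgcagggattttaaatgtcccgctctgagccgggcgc
CDK6, chr7:92836574-92836673, minus strand: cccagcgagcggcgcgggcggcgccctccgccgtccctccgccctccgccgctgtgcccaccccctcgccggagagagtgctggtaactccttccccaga

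E2F1 and RBL1 each hold a pair of matches within 33 bases of the start, and the stretches shown of CDC25A and PCNA hold 1 each. Their fold changes differed, at 0.08 for E2F1, −0.06 for RBL1, −0.09 for CDC25A and 0.29 for PCNA. Among the G1/S genes, 5 of the 13 with a match rose, and 7 of the 9 without one rose. The difference between these classes was not tested. The absence of these letters from a window says nothing of E2F binding elsewhere or through other sequences within it.

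The genes most like CCND1 over the 6 libraries, among 11190 genes of at least 5 CPM, were ZNF74, PTPN23 and PDCD7. The root mean square difference of their centred log2 CPM from that of CCND1 was 0.016, 0.017 and 0.017. PTPN23 was at 123, 119.5 and 120.2 CPM in control and at 108, 104 and 101 CPM after OGD/R. The genes most like E2F1 were ARHGEF1, USP11 and CENPB, at 0.016, 0.019 and 0.019. In each of them OGD/R replicate 1 was the highest library, as it was for E2F1, which follows from how they were picked.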

How the data were processed

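The labels' protocols name NEBNext Ultra for library construction. The authors deposited raw counts of reads by Ensembl gene. The submitters' processing notes list featureCounts, HISAT2, Trimmomatic, SAMtools and edgeR, without versions, and the build GRCm38, a mouse build, while the IDs are human, so the build behind the counts is uncertain. No gene of the table had fewer than 3 libraries reaching 10 counts, so it had been filtered already.

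Of 17104 IDs, 17093 matched a symbol. Counts were scaled by TMM and tested with edgeR 4.0.16 (R 4.3.3, robust quasi-likelihood fit, two-sided, Benjamini-Hochberg over all genes, threshold 0.05, filterByExpr with minimum count 10, which removed 0 genes). Levels are TMM-scaled CPM; fold changes compare OGD/R with control on the log2 scale. Alternatives were DESeq2 1.42.0, limma-voom (limma 3.58.1), scaling by RLE, upper quartile or total counts only, filters, mitochondrial genes left out, the replicate number as a block, leaving out each library, and a smooth per-library trend (mgcv 1.9.3) on length and GC content of the longest GENCODE 29 transcript, fitted on 10848 protein-coding genes. Members and lists were chosen with earlier results of these data known. Named genes are all members, the 4 passing genes of smallest p per direction in each other list and 7 genes set by name. The 3 genes nearest to CCND1 and to E2F1 are named too. WEE1, FBXO5, CDKN2A, CDT1, E2F2, E2F3, LIN52 and TFDP1 were named after their values were seen.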

Additional observations from a re-analysis of the deposited data

How the results depend on the processing

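Each of the 10 genes kept the sign of its fold change under all 17 alternatives of the fit. The calls of CCND1 and CDK6 held under each, with log2 values of −0.23 to −0.16 and −0.23 to −0.11. The count of members higher was 2 with DESeq2, where CDKN1B passed (0.14, adjusted p 0.0446), and 0 to 1 when 1 library was left out. It was 0 without OGD/R replicate 2, where edgeR gave 2 members higher at an unadjusted p under 0.05; CDK2 ranged from 0.15 to 0.19 over these fits. CCNE1 passed with the length and GC correction (−0.19, adjusted p 0.0312) and with the replicate block beside it (−0.19, 0.0278). Among the 41 other pathway genes, the lower count was 5 with total counts only, 5 with the length and GC correction and 5 with the replicate block as well, and 1 to 4 with a library left out; the higher count was 9 with the correction and 10 with the replicate block as well. In the G1/S list total counts only gave 1 lower. Total counts only also moved the share of higher genes among all calls from 51.9% to 39.7%, and left the members at 1 higher and 2 lower. The ratio differences of CCNE1/CCNE2 and E2F1/RB1 changed sign when a library was left out, with −0.083 to 0.098 and −0.054 to 0.066. The cause of these shifts was not tested. Same-numbered libraries of the 2 groups did not deviate together (correlations −0.0009, 0.08 and −0.01), so the numbers were not taken as pairs; the replicate block alone changed no call of a member. CCNE2 had the fewest counts and the widest interval of the members, and its counting error of 4.99% was below the spread of its libraries (11.2% in control, 7.77% after OGD/R). Fitting with no filter tested the same genes and so shows nothing about filtering.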
